A study of Homo sapiens with 6 samples.

Results

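The genes described here are 10 secreted chemokines and inflammatory cytokines, CXCL1, CXCL2, CXCL3, CXCL5, CXCL8, IL6, IL1A, IL1B, CSF2 and LIF, taken by name from the 58288 genes of the deposited count table. T24, a human bladder cancer cell line, was transfected with a control siRNA (NC) or with 1 of 2 siRNAs, si-circ235-1 and si-circ235-2, that both aim at the junction of the circular RNA circ_0000235 (circ235). Each of the 3 conditions had 2 libraries, which the labels call biological replicates of 1 cell line, and all 6 were made from RNA enriched for poly(A) tails with oligo dT beads, and the sequencing kept no strand. The study sequenced these cells to look for genes and pathways downstream of circ235. The sources used here give neither dose nor time after transfection. Circular RNAs carry no poly(A) tail, so circ235 itself has no value in these counts and the knockdown could not be checked in them. The sources do not say whether replicates came from separate cultures, so p-values measure the spread between these libraries.

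CXCL1, CXCL2, CXCL3, CXCL5 and CXCL8 belong to the CXC chemokines that carry an ELR motif, small secreted proteins that draw neutrophils along a gradient through the receptor CXCR2 and, for CXCL8, also CXCR1. Interleukin 1 alpha and beta (IL1A, IL1B) bind IL1R1 and IL1RAP and act through MYD88, IRAK kinases and NF-kB, a family of transcription factors that switches on the CXC chemokines, IL6 and CSF2 in many cell types. IL6 and LIF signal through receptor complexes that share the chain encoded by IL6ST and pass the signal to JAK kinases and STAT3. CSF2, also called GM-CSF, supports granulocytes and macrophages. Messenger RNAs of this kind often carry AU-rich elements in the 3' UTR, which mark them for rapid decay. Tumour cells, bladder cancer lines among them, can secrete these factors themselves.

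The libraries held 15373992 to 19912893 counts. A gene with 3 counts in a library stood at 0.143 to 0.210 counts per 1e+06 reads (CPM, scaled here by TMM factors that correct for differences in composition between libraries), and values at or below that level were read as not detectable at this depth. Of the 58288 genes, 14415 passed the filter on low counts and were tested with edgeR's quasi-likelihood test, and 7 of the 10 chemokine and cytokine genes were among them. CXCL5, IL1A and IL1B had too few counts. The cultures expressed keratins KRT7, KRT8 and KRT18 together with VIM and CD44, with a summed level of 4544 to 7136 CPM for 8 epithelial and bladder cancer line genes, while KRT19 had 1 read and CDH1 18 reads in all 6 libraries. Of 8 genes of differentiated urothelium 2 had 0 reads, and the list summed to 24.3 to 25.4 CPM in NC, 40.7 to 48.6 under si-circ235-1 and 50.8 to 52.7 under si-circ235-2, mostly from PPARG (0.90 under si-circ235-1, a call lost without TMM factors at 0.82 or without any 1 of the 4 libraries compared, and 1.13 under si-circ235-2). Of 10 leukocyte markers 6 had 0 reads in all libraries, among them PTPRC, the gene of the pan-leukocyte antigen CD45. Replicates of 1 condition differed by more than sampling noise (chi-square divided by its degrees of freedom, 21.7 to 33.3).

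Per kilobase of transcript, CXCL1 had the highest level of the 7 tested genes in NC cells, at 213 and 238 CPM per kb. CXCL8 followed at 63.9 and 80.0 CPM per kb and LIF at 59.6 and 52.8, and the 2 genes stood close together without overlap. CXCL2 and IL6 could not be ordered, since their NC values of 44.5 and 45.1 and of 43.0 and 44.6 CPM per kb overlapped. CSF2, at 6.16 and 5.28, and CXCL3, at 0.879 and 1.79, were far lower.

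CXCL1, CXCL2, CXCL8 and IL6 were higher in all 4 siRNA libraries than in both NC libraries, and each passed the test under 1 of the siRNAs. Under si-circ235-1 the chemokines CXCL1 and CXCL2 rose 2.31-fold and 2.05-fold. Under si-circ235-2 the neutrophil chemokine CXCL8 and the cytokine IL6 rose 1.78-fold and 1.62-fold. CXCL1, CSF2 and LIF differed between the siRNAs, with CXCL1 and CSF2 lower and LIF higher under si-circ235-2 than under si-circ235-1. Thus 2 of 7 tested genes (28.6%) were called higher and 0 lower under si-circ235-1, where 2.24% of all genes tested were called higher and 3.64% lower at an adjusted p under 0.05. Under si-circ235-2 the count was again 2 of 7 higher and 0 lower, beside 15.7% of all genes called higher and 15.7% lower. For 7 genes such a count is near those shares. Their median log2 fold change was 0.64 under si-circ235-1 and 0.54 under si-circ235-2, beside -0.03 and -0.00 over all genes tested. The genes were chosen with earlier results of these data known, so these shares and medians describe them and test nothing. In bulk RNA a change in the share of cells that express a gene and a change in RNA per cell cannot be told apart. The 2 comparisons share the NC libraries, so their values are given side by side and not as independent evidence.

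**Figure D1:**
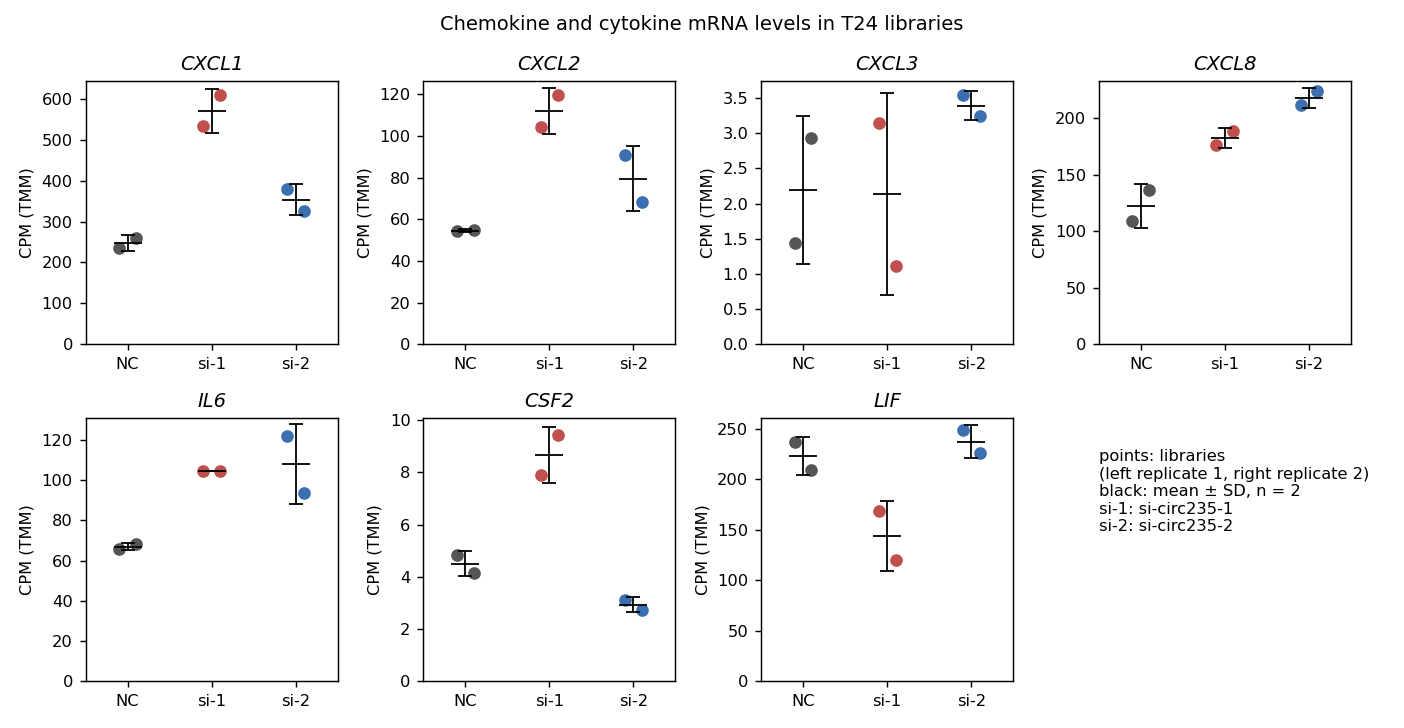
Level of the 7 tested genes in each library, in TMM-scaled CPM on a linear axis from 0, by condition (NC, si-circ235-1, si-circ235-2). Points are libraries and black bars the mean ± SD of 2 libraries. CXCL1 and CXCL2 were highest under si-circ235-1, CXCL8 under si-circ235-2, and CXCL3 replicates spread as widely as the conditions.

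The CXC chemokine genes lie together on chromosome 4 (GRCh38), from CXCL8 (73740506 to 73743716, plus strand) over CXCL1 (73869393 to 73871242, plus strand), CXCL5 (73995642 to 73998779, minus strand) and CXCL3 (74036589 to 74038807, minus strand) to CXCL2 (74097035 to 74099293, minus strand). Neighbours in the cluster were not all active. PF4V1, PF4, PPBP and CXCL5 had 0 reads in all 6 libraries, while CXCL6, between CXCL8 and CXCL1, had a mean of 7.95 CPM in NC. CXCL1, CXCL2 and CXCL3 are close copies, with transcripts 88.1% identical between CXCL1 and CXCL2 over 1118 aligned nt, so the counter may have split some reads between them. The share of 50-nt stretches found unchanged in another CXCL transcript was 5.73% for CXCL1, 9.24% for CXCL2, 3.02% for CXCL3 and 0% for CXCL8.

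CXCL1, a neutrophil attractant, stood at 234 and 261 CPM in NC, at 533 and 608 under si-circ235-1 and at 380 and 326 under si-circ235-2. Every siRNA library lay above both NC libraries, and the si-circ235-1 libraries above the si-circ235-2 libraries. The log2 fold change against NC was 1.21 ± 0.20 (SE) for si-circ235-1 (edgeR, adjusted p = 0.0119), rank 94 by p among 14415 genes. For si-circ235-2 it was 0.51, with a 95% interval of 0.08 to 0.94, and did not pass (edgeR, adjusted p = 0.0669). The siRNAs also differed by the test, with CXCL1 lower by 0.69 ± 0.20 (SE) on the log2 scale under si-circ235-2 (log2 fold change -0.69, edgeR, adjusted p = 0.0169).

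CXCL2, which acts on the same receptor, had 54.2 and 54.9 CPM in NC, 104 and 120 under si-circ235-1, and 90.6 and 68.5 under si-circ235-2. The 3 conditions did not overlap and kept the order of CXCL1. Its log2 fold change was 1.04 ± 0.20 (SE) under si-circ235-1 (edgeR, adjusted p = 0.0173) and 0.54, interval 0.11 to 0.97, under si-circ235-2 (edgeR, adjusted p = 0.0543). The difference between the siRNAs was -0.49, interval -0.92 to -0.07, and was not called (edgeR, adjusted p = 0.0644).

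The CXCL1 call under si-circ235-1 was lost without NC replicate 1 (edgeR, adjusted p = 0.0775), NC replicate 2 (0.0604) or si-circ235-1 replicate 2 (0.170), and the CXCL2 call without any 1 of the 4 (0.0964, 0.0870, 0.0503 and 0.184), with log2 fold changes between 0.93 and 1.32. Under si-circ235-2 both genes were called with total counts in place of TMM factors, at 0.76 (CXCL1) and 0.79 (CXCL2).

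CXCL3, a close relative of both, was barely expressed, at 1.44 and 2.93 CPM in NC, 3.15 and 1.12 under si-circ235-1, and 3.54 and 3.25 under si-circ235-2. Its replicates overlapped between NC and si-circ235-1. The log2 fold changes of CXCL3 were -0.07 (interval -1.19 to 1.06) and 0.63 (interval -0.46 to 1.71) and not called, intervals that 263 reads in 6 libraries left wide. Leaving out NC replicate 2 or si-circ235-1 replicate 2 turned the first value to 0.57 or 0.52. CXCL5 had 0 reads in every library.

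CXCL8, a potent neutrophil chemokine, measured 109 and 136 CPM in NC, 176 and 189 under si-circ235-1, and 212 and 224 under si-circ235-2. The conditions did not overlap, and here si-circ235-2 was highest. CXCL8 rose under si-circ235-2, by 0.83 ± 0.19 (SE) on the log2 scale (edgeR, adjusted p = 0.00848). Under si-circ235-1 the value was 0.57, interval 0.16 to 0.98 (edgeR, adjusted p = 0.0900), where DESeq2 called it (0.60, adjusted p = 0.0325). The siRNAs did not differ by the test for CXCL8, with a difference of 0.26 and an interval of -0.15 to 0.67. Without NC replicate 1, the lower NC library, the si-circ235-2 value was 0.68 and no longer called (edgeR, adjusted p = 0.0855).

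Promoters of CXCL1, CXCL2, CXCL8 and IL6, with CXCL3 as the close copy that had little RNA, are shown because they hold a short NF-kB motif close to the transcription start. The motif searched was GGNNTTTCC on both strands, letters chosen with the known sites of these genes in mind, within 250 bases before to 50 after the start of RefSeq transcripts (GRCh38.p14). It occurred in 6.26% of 35116 promoters of that length. Of the 10 genes, 8 had an entry, and 6 of them held a match (IL1B and CSF2 did not). IL1A and LIF had no entry. The 150 bases before the start follow, 5' to 3', with matches in capitals, for CXCL1 (chr4:73869243-73869392, plus strand), CXCL2 (chr4:74099196-74099345, minus strand), CXCL3 (chr4:74038690-74038839, minus strand), CXCL8 (chr4:73740419-73740568, plus strand) and IL6 (chr7:22727050-22727199, plus strand).
CXCL1: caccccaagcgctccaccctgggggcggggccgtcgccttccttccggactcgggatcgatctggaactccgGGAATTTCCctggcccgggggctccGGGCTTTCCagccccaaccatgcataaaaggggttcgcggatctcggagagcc
CXCL2: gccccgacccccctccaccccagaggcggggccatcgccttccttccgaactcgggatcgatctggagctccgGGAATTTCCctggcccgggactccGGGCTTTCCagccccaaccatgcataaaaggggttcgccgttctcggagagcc
CXCL3: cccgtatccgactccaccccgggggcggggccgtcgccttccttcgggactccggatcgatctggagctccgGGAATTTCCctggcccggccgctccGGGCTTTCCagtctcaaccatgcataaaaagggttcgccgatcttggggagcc
CXCL8: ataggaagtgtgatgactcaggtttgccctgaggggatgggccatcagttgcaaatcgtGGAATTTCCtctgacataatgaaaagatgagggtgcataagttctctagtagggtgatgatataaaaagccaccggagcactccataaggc
IL6: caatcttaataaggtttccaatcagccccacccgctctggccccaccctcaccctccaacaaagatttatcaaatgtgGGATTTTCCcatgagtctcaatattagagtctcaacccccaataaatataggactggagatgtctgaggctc

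CXCL1, CXCL2 and CXCL3 each held the pair of matches GGAATTTCC and GGGCTTTCC, the second at bases -53 to -45 from the start in all 3. CXCL3, which had little RNA, carried the same pair as CXCL1 and CXCL2. CXCL8 and IL6 held 1 match each, at -91 to -83 and at -72 to -64. CXCL8 also held TGACTCA at -137 to -131, a match to the AP-1 motif TGANTCA, which reads the same on both strands and occurred in 7.71% of promoters, and TATAAA at -31 to -26, found in 11.5%. The matches did not overlap each other, and a match is a run of letters and no measurement of binding.

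IL6, an acute-phase cytokine on chromosome 7 (22725884 to 22732002, plus strand), measured 65.7 and 68.1 CPM in NC, 105 and 105 under si-circ235-1, and 122 and 93.9 under si-circ235-2. All 4 siRNA libraries lay above both NC libraries, and the 2 siRNAs overlapped. IL6 rose under si-circ235-2, with a log2 fold change of 0.69 ± 0.19 (SE, edgeR, adjusted p = 0.0186). The si-circ235-1 value was close to it, 0.64 with an interval of 0.23 to 1.06, and did not pass (edgeR, adjusted p = 0.0665), while it did with DESeq2 (0.67, adjusted p = 0.0214). The difference between the siRNAs was 0.05, interval -0.36 to 0.46. The si-circ235-2 call was lost without NC replicate 1 (edgeR, adjusted p = 0.115), NC replicate 2 (0.0507) or si-circ235-2 replicate 1 (0.155). STEAP1B and AC073072.1 overlap IL6 on the other strand, with 1617 counts over their whole length beside 9531 for IL6. Without strand, reads from the shared stretch cannot be told apart, and how many there were is not known.

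LIF, a cytokine of the same receptor family on chromosome 22 (30240447 to 30246851, minus strand), went the other way under si-circ235-1. Its levels were 237 and 210 CPM in NC, 169 and 120 under si-circ235-1, and 249 and 226 under si-circ235-2. Both si-circ235-1 libraries lay below the other 4, while si-circ235-2 overlapped NC. LIF-AS1 and AC004264.1 overlap LIF on the other strand, with 339 counts over their whole length beside 20551 for LIF. Against NC the log2 fold change of LIF was -0.63 under si-circ235-1 (interval -1.09 to -0.17, edgeR, adjusted p = 0.0930) and 0.09 under si-circ235-2 (interval -0.37 to 0.55), neither called. Between the siRNAs LIF was higher under si-circ235-2 by 0.72 ± 0.21 (SE, edgeR, adjusted p = 0.0187). That call was lost without si-circ235-1 replicate 2 (0.49, edgeR, adjusted p = 0.156), without si-circ235-2 replicate 1 (0.65, 0.0733) and after a length and GC trend was taken out (0.36, 0.0552).

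CSF2, the granulocyte and macrophage factor on chromosome 5 (132073790 to 132076170, plus strand), was expressed at a low level, 4.85 and 4.15 CPM in NC, 7.90 and 9.43 under si-circ235-1, and 3.12 and 2.72 under si-circ235-2. The 3 conditions did not overlap, with si-circ235-1 above NC and si-circ235-2 below. Against NC the log2 fold changes of CSF2 were 0.95 (interval 0.33 to 1.56, edgeR, adjusted p = 0.0701) and -0.62 (interval -1.26 to 0.02, edgeR, adjusted p = 0.124), neither called. The siRNAs differed, with a log2 fold change of -1.57 ± 0.29 (SE) for si-circ235-2 against si-circ235-1 (edgeR, adjusted p = 0.00209). This call was kept under every alternative run.

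IL1A and IL1B, the interleukin 1 genes on chromosome 2 (112773915 to 112784590 and 112829751 to 112836903, both on the minus strand), had too few counts to test. IL1A had 44 reads in all 6 libraries, 24 of them in si-circ235-1 replicate 2 (1.34 CPM) and 0 in si-circ235-2 replicate 1. IL1B had 4 reads in all, 2 in si-circ235-1 replicate 1 and 2 in si-circ235-2 replicate 2. No comparison was made for either gene.

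**Figure D2:**
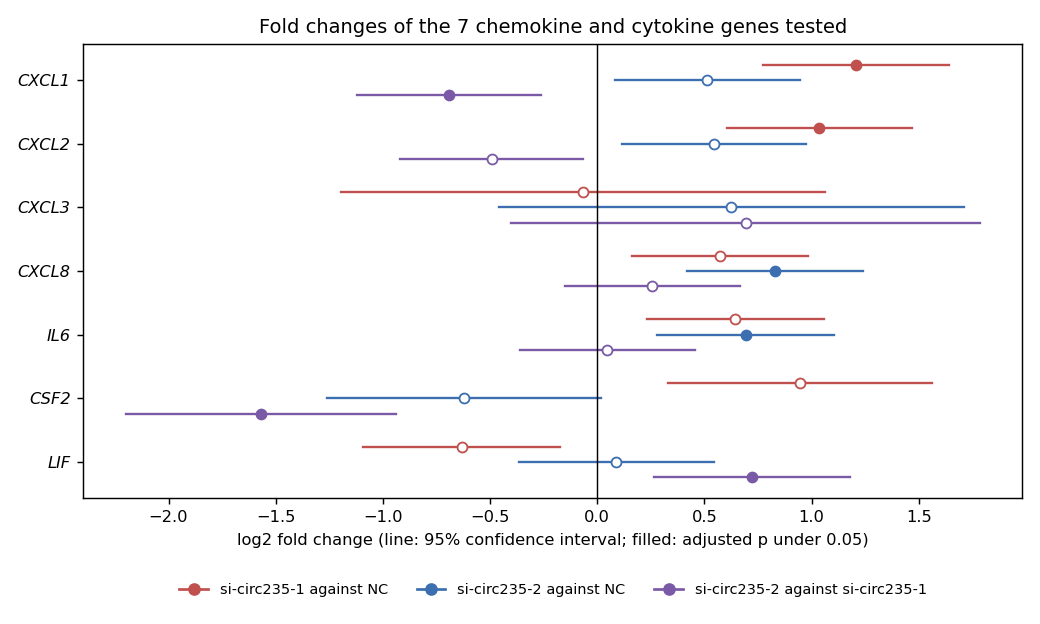
Log2 fold change of each of the 7 tested genes (x axis) in the 3 comparisons of conditions, with 95% confidence intervals as lines. Filled points are called at an adjusted p under 0.05. CXCL1 and CXCL2 are filled for si-circ235-1 against NC, CXCL8 and IL6 for si-circ235-2 against NC, and CXCL1, CSF2 and LIF for the siRNAs against each other.

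Set directly against each other, the siRNAs differed in 3 of the 7 tested genes. LIF was called higher under si-circ235-2 (14.3% of the 7, beside 21.1% of all genes tested), and CXCL1 and CSF2 were called lower (28.6%, beside 18.6% of all genes). Shares of this size are near those over all genes. The median log2 fold change of the 7 was 0.05, beside 0.04 over all genes. No gene of the 7 was called against NC under both siRNAs, in the same or in opposite directions. Of all 14415 genes tested, 113 were called higher under both, 92 lower under both and 93 in opposite directions. Such calls were rare over all genes, so 0 of 7 says little about these genes. The CXCL1 difference was lost without si-circ235-1 replicate 2 (edgeR, adjusted p = 0.110) or si-circ235-2 replicate 2 (0.124) and with total counts in place of TMM factors (-0.36, 0.143), where the CXCL8 difference was called instead (0.60, 0.0376).

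With the 4 siRNA libraries as 1 group against NC, edgeR called 0 of the 7 genes and 0 of all 14415, 0% of genes higher and 0% lower. At an unadjusted p under 0.05 the counts were 4 of the 7 and 1379 of all genes, and DESeq2 called 0 of the 7 and 160 of all genes. The log2 fold changes were 0.90 for CXCL1, 0.81 for CXCL2, 0.71 for CXCL8, 0.67 for IL6, 0.36 for CSF2, 0.33 for CXCL3 and -0.23 for LIF, with a median of 0.67 beside 0.02 over all genes. In the fit with 1 mean per condition, the average of both siRNAs against NC was called for CXCL1, CXCL2, CXCL8 and IL6, at 0.86, 0.79, 0.70 and 0.67 (edgeR, adjusted p = 0.0201 to 0.0336).

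The scaling of the libraries bears on the si-circ235-2 values. TMM factors were 1.10 and 1.19 in si-circ235-2, 0.890 and 1.03 in NC, and 0.918 and 0.900 in si-circ235-1. With total counts alone the median log2 fold change over all genes was -0.11, 0.25 and 0.37 in the 3 comparisons, and the higher and lower calls among all genes went from 323 and 524 to 179 and 529 under si-circ235-1, from 2270 and 2260 to 3173 and 1294 under si-circ235-2, and from 3047 and 2678 to 4534 and 1496 between the siRNAs. Among the 7 genes, the calls were then 2, 4 and 3. With the length and GC trend taken out, higher and lower calls among all genes were 1248 and 747, 1574 and 2082, and 2384 and 3432 in the same order, and those among the 7 genes were 4, 4 and 3.

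Over the 6 libraries CXCL1 and CXCL2 varied together most closely (Pearson r = 0.98 of log2 CPM), followed by CXCL8 and IL6 (r = 0.87) and CXCL2 and IL6 (r = 0.85). CSF2 and LIF ran in opposite directions (r = -0.87), as did CXCL1 and LIF (r = -0.80). CXCL8 and CSF2 had r = -0.19. These values describe 6 libraries in 3 conditions that share depth and composition within a library. Outside the list, the genes whose level followed CXCL1 most closely were TMBIM6 (r = 0.996), LMO4 (0.992), JAZF1, GFOD1 and UBE2D3 (0.991 each), found by searching 14415 genes.

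The AU pentamer ATTTA was counted in the 3' UTRs of these genes, read from GENCODE release 29. The median over 12146 3' UTRs of tested genes was 1.64 pentamers per kilobase, while the 10 genes ranged from 2.18 (LIF) to 25.2 (CSF2), with 7.08 in CXCL1, 13.9 in CXCL2, 10.4 in CXCL3, 7.19 in CXCL8 and 14.0 in IL6. Among 3' UTRs of like length (within 20%), as many pentamers as in CSF2 were found in 0.127%, as in IL6 in 0.512%, as in CXCL8 in 2.12%, as in CXCL1 in 5.56%, as in IL1A in 16.7% and as in LIF in 50.5%, so LIF did not stand out for its length. The 30 bases with the most pentamers are shown for the 7 tested genes, 5' to 3' in DNA letters with each ATTTA in capitals, since they set CSF2 and CXCL2, with overlapping pentamers in 1 run, apart from LIF and IL6, where they are scattered.
CXCL1: aagtcttctATTTATTTATTTAttcattag
CXCL2: cttctATTTATTTATTTATTTATTTAtttg
CXCL3: gttctacttATTTAtgtATTTAtttttgaa
CXCL8: cctATTTAttATTTAtgtATTTATTTAagc
IL6: tatttttaATTTAttaatATTTAaatatgt
CSF2: aaaatATTTATTTATTTATTTATTTAagtt
LIF: ATTTAttcaatgtcatATTTAaaatATTTA

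Whether pentamer density has a part in the fold changes was not tested. CSF2, with the most per kilobase, had values of opposite sign under the 2 siRNAs, neither called against NC. IL6 and CXCL2, with similar densities, had log2 fold changes of 0.64 and 1.04 under si-circ235-1 and of 0.69 and 0.54 under si-circ235-2. The nonamer TTATTTATT, a stricter form of the element that contains the pentamer, was present in 9.39% of 3' UTRs of tested genes and in those of CXCL1, CXCL2, CXCL3, CXCL8, IL1B, CSF2 and LIF, but not of IL6, IL1A or CXCL5.

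**Figure D3:**
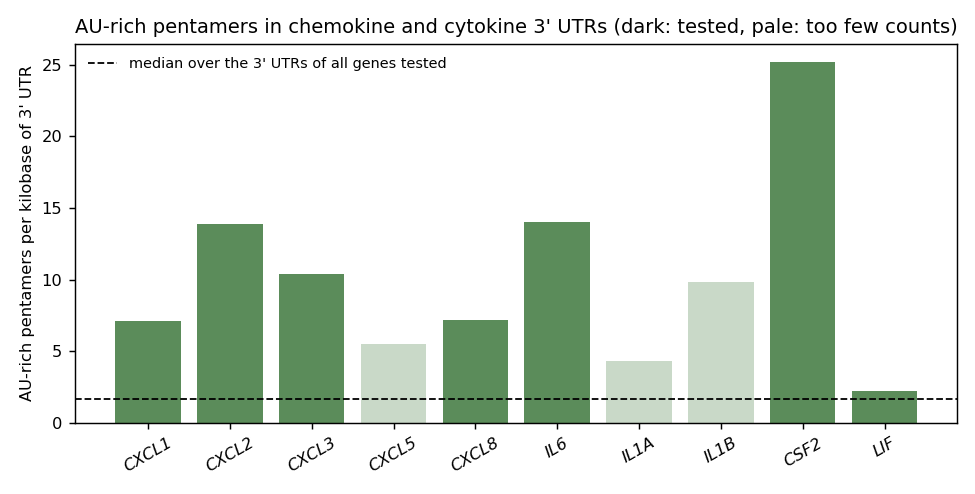
Number of AU-rich pentamers per kilobase of 3' UTR (y axis, from 0) for the 10 genes, with dark bars for the 7 tested genes and pale bars for the 3 with too few counts. The dashed line is the median of 1.64 over the 3' UTRs of tested genes, and CSF2 stands highest at 25.2.

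Receptors for these factors were present only in part. CXCR1, CXCR2, ACKR1, CSF2RA and CSF2RB had 0 or 1 read in all, so the receptors of the CXC chemokines and of CSF2 were not detectable at this depth. Of the 12 receptor genes 7 were tested, with 1 called higher under si-circ235-1 and 4 higher under si-circ235-2, 0 lower in either, and median log2 fold changes of 0.34 and 0.91 beside -0.03 and -0.00 over all genes. Of all genes tested, 2.24% were called higher and 3.64% lower under si-circ235-1, and 15.7% higher and 15.7% lower under si-circ235-2. IL1RAP, the accessory chain of the interleukin 1 receptor, measured 6.75 and 6.78 CPM in NC, 12.7 and 14.4 under si-circ235-1, and 13.8 and 19.3 under si-circ235-2. It was the single receptor called under both siRNAs, at 1.01 (edgeR, adjusted p = 0.0465) and 1.29 (edgeR, adjusted p = 0.00512), the first lost with total counts in place of TMM factors (0.92, 0.0866). OSMR, 1 of the 4 called under si-circ235-2, pairs with IL6ST in a receptor of OSM and of none of these factors. It rose from 101 and 123 CPM in NC to 293 and 304 under si-circ235-2 (log2 fold change 1.41, edgeR, adjusted p = 0.00179) and stood at 172 and 168 under si-circ235-1. IL1R1, the signalling receptor of interleukin 1, rose by 1.05 under si-circ235-2 (edgeR, adjusted p = 0.00581) and was higher there than under si-circ235-1 by 1.54. IL6R, the receptor chain that binds IL6, rose from 11.5 and 16.1 CPM in NC to 24.4 and 27.4 under si-circ235-2 (log2 fold change 0.91, edgeR, adjusted p = 0.0185). Under si-circ235-1 IL6R measured 26.8 and 21.8 CPM (0.81, interval 0.27 to 1.36, edgeR, adjusted p = 0.0742), and the difference between the siRNAs was 0.10, interval -0.44 to 0.63. IL6ST, the chain shared by IL6 and LIF, was not called, and its si-circ235-2 replicates stood far apart, at 12.2 and 95.9 CPM.

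**Figure D4:**
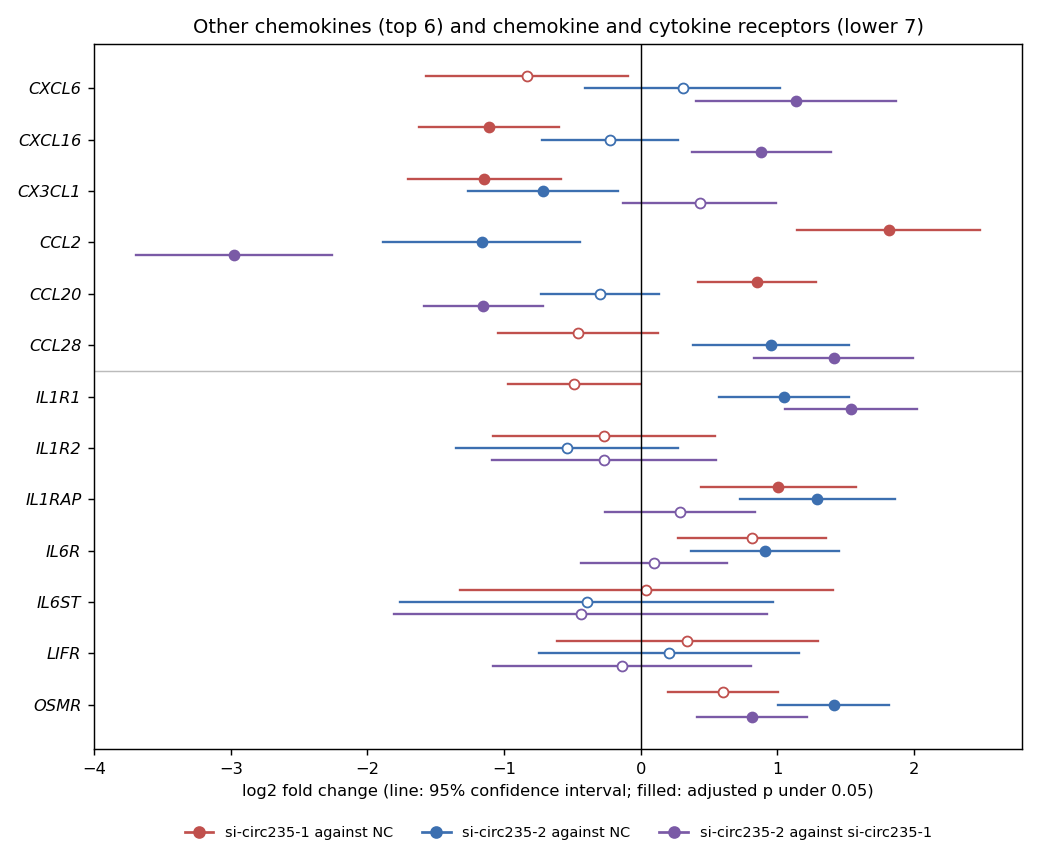
Log2 fold change (x axis) of the 6 other chemokines and the 7 receptors tested, in the 3 comparisons of conditions, with 95% confidence intervals as lines and called genes as filled points. CCL2 lies at 1.81 for si-circ235-1 and at -1.16 for si-circ235-2 against NC, and 4 receptors are filled for si-circ235-2.

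Other chemokines, outside the 10 genes, did not share 1 direction. Of 13 listed, 6 were tested, with 2 called higher and 2 lower under si-circ235-1 and 1 higher and 2 lower under si-circ235-2, and medians of -0.65 and -0.26. Shares called higher and lower over all genes were 2.24% and 3.64% under si-circ235-1 and 15.7% and 15.7% under si-circ235-2. CCL2, the monocyte chemokine, stood at 4.78 and 4.27 CPM in NC, 14.3 and 17.5 under si-circ235-1, and 2.59 and 1.48 under si-circ235-2. It rose under the first siRNA (1.81, edgeR, adjusted p = 0.0127), fell under the second (-1.16, edgeR, adjusted p = 0.0214), and the siRNAs differed by -2.98 (edgeR, adjusted p = 0.000418). The order si-circ235-1, NC, si-circ235-2 was also that of CSF2. CX3CL1, a membrane-bound chemokine, fell under both siRNAs, by 1.15 and 0.71 on the log2 scale (edgeR, adjusted p = 0.0298 and 0.0490). CXCL16, another membrane-bound chemokine, fell under si-circ235-1 (-1.11, edgeR, adjusted p = 0.0252), while CCL28, a mucosal chemokine, rose under si-circ235-2 (0.95, edgeR, adjusted p = 0.0187). With total counts in place of TMM factors, 1 of these 3 calls under si-circ235-2 was left.

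Of 23 further cytokine genes 16 were tested, with 1 higher and 3 lower under si-circ235-1 and 1 higher and 4 lower under si-circ235-2, and medians of -0.17 and -0.47. Over all genes the shares called higher and lower were 2.24% and 3.64% under si-circ235-1 and 15.7% and 15.7% under si-circ235-2. CSF3, the granulocyte factor G-CSF, was the 1 of the 16 cytokine genes that rose in both. Its levels were 5.05 and 5.43 CPM in NC, 17.2 and 17.1 under si-circ235-1, and 11.3 and 11.6 under si-circ235-2, with log2 fold changes of 1.71 (edgeR, adjusted p = 0.00747) and 1.13 (edgeR, adjusted p = 0.00621). TNFSF10, the death ligand TRAIL, fell in both, by 2.29 and 2.18 on the log2 scale (edgeR, adjusted p = 0.0496 and 0.0173), from 2.16 and 1.53 CPM in NC to at most 0.530. CSF1, the macrophage factor, fell under si-circ235-1 (-1.13, edgeR, adjusted p = 0.0303), and IL32 fell under si-circ235-2 (-1.35, edgeR, adjusted p = 0.00916).

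Genes of interleukin 1 and NF-kB signalling moved in both directions. Beside them, 2.24% of all genes were called higher and 3.64% lower under si-circ235-1, and 15.7% higher and 15.7% lower under si-circ235-2. Of the 17 signalling genes, all tested, 0 were called higher and 1 lower under si-circ235-1, namely TAB1, a partner of the kinase TAK1 (-0.85, edgeR, adjusted p = 0.0442). Under si-circ235-2, 3 were higher and 2 lower. The higher genes were IRAK2 (1.63, edgeR, adjusted p = 0.00197), TRAF6 (1.50, edgeR, adjusted p = 0.00443) and TAB2 (1.06, edgeR, adjusted p = 0.00555), which relay the signal from the receptor. The lower genes were the NF-kB subunit RELB (-1.03, edgeR, adjusted p = 0.00685) and MAP3K7, the gene of TAK1 (-0.72, edgeR, adjusted p = 0.0241). Of 9 feedback genes that NF-kB induces or that hold it in check, edgeR and DESeq2 called 0 under si-circ235-1 (3 at an unadjusted p under 0.05; TNIP1 0.46 and NFKBIA 0.06). Under si-circ235-2 the feedback genes split, with NFKBIZ (1.31, edgeR, adjusted p = 0.00256) and TNFAIP3 (0.99, edgeR, adjusted p = 0.0117) higher and 3 lower, among them the co-regulator BCL3 (-1.05, edgeR, adjusted p = 0.00490). Medians of the feedback genes were 0.40 and -0.55 under the 2 siRNAs.

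On the IL6 and LIF side, 1 of 8 JAK-STAT3 genes was called lower under si-circ235-1, the inhibitor SOCS1 (-1.55, edgeR, adjusted p = 0.0127), and 2 were called higher under si-circ235-2, STAT3 (1.17, edgeR, adjusted p = 0.00261) and JAK1 (0.97, edgeR, adjusted p = 0.00539). All genes gave 2.24% higher and 3.64% lower calls under si-circ235-1, and 15.7% higher and 15.7% lower calls under si-circ235-2. Between the siRNAs PIAS3, an inhibitor of STAT3, was higher under si-circ235-2 (1.86, edgeR, adjusted p = 0.00367). In the list of 11 interleukin 1 antagonists and processing factors, 8 were tested. CASP4, an inflammatory caspase, rose under si-circ235-1 (1.06, edgeR, adjusted p = 0.0131), while SIGIRR, a receptor that dampens interleukin 1 signals, and GSDMD, the pore protein of pyroptosis, fell under si-circ235-2 (-1.37 and -0.96; edgeR, adjusted p = 0.00859 and 0.00905), 2 of 3 genes called lower there beside 1 called higher. The NC libraries of SIGIRR stood apart, at 97.6 and 46.7 CPM, and without NC replicate 1 neither gene was called.

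Of 17 factors of AU-rich decay and stability, all tested, 1 was called lower under si-circ235-1, the decay factor KHSRP (-0.87, edgeR, adjusted p = 0.0365). Under si-circ235-2, 3 were higher and 2 lower, with CNOT1, the scaffold of the deadenylase complex, at 2.42 (edgeR, adjusted p = 0.00197), the kinase MAPK14 at 1.04 (edgeR, adjusted p = 0.00343) and ZFP36L1, a decay factor that binds AU-rich elements, at 0.83 (edgeR, adjusted p = 0.0146). CNOT1 measured 37.0 and 73.7 CPM in NC, 59.3 and 33.5 under si-circ235-1, and 267 and 326 under si-circ235-2. For all genes tested, the shares called higher and lower were 2.24% and 3.64% under si-circ235-1 and 15.7% and 15.7% under si-circ235-2.

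Double-stranded RNA can itself induce interferon and cytokine genes, so a list of 17 such genes was set beside the results. IFNB1 and IFNL1 had 0 reads in all libraries. Of the 13 tested, edgeR and DESeq2 called 0 under si-circ235-1 (0 at an unadjusted p under 0.05, with ISG15 at 0.20), and under si-circ235-2 edgeR called 2 higher, among them OAS3 (1.32, adjusted p = 0.00179), and 1 lower, ISG15 (-1.05, adjusted p = 0.0181). Among all genes edgeR called 2.24% higher and 3.64% lower under si-circ235-1, and 15.7% higher and 15.7% lower under si-circ235-2. The leukocyte list was highest under si-circ235-1, the condition in which CXCL1 and CXCL2 rose, with CD14, a co-receptor for bacterial lipopolysaccharide, called at 1.87 (edgeR, adjusted p = 0.0104). Its summed level was 3.21 to 3.36 CPM in NC, 10.9 to 11.3 under si-circ235-1 and 2.05 to 2.83 under si-circ235-2, nearly all of it from CD14 (2.82 and 2.87, 11.0 and 9.93, and 2.12 and 1.72 CPM), while PTPRC, CD3E, LYZ, FCGR3A and MPO had 0 reads. Of 9 fibroblast and endothelial markers 2 had 0 reads, and the list summed to 1.25 to 1.28 CPM in NC, 2.80 to 3.68 under si-circ235-1 and 2.06 to 2.53 under si-circ235-2. The part that CD14, the fibroblast and endothelial markers or the interferon genes have in the chemokine values was not tested.

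Set against each other, the siRNAs differed in many genes, with 21.1% of all genes tested called higher under si-circ235-2 and 18.6% lower. The counts in these lists are small and were not tested against those shares. Higher and lower calls under si-circ235-2 were 3 and 2 of 6 other chemokines, 2 and 3 of 16 other cytokines, 2 and 0 of 7 receptors, 0 and 4 of 8 interleukin 1 antagonists and processing factors, 7 and 2 of 17 signalling genes, 2 and 6 of 9 NF-kB feedback genes, 4 and 0 of 8 JAK-STAT3 genes, 5 and 1 of 17 decay factors and 2 and 2 of 13 interferon genes. Among these lists the feedback genes lay furthest from 0, with a median of -0.91 beside 0.04 over all genes tested. NFKBIZ was higher at 1.71 (edgeR, adjusted p = 0.000526), as was TNFAIP3, while NFKBIE (-1.49, edgeR, adjusted p = 0.000950) and NFKBIB (-1.11, edgeR, adjusted p = 0.00185), which hold NF-kB in the cytoplasm, were lower. Of the chemokines, CCL20, an attractant of lymphocytes and dendritic cells, was lower under si-circ235-2 (-1.15, edgeR, adjusted p = 0.00162) and CCL28 higher (1.41, edgeR, adjusted p = 0.00233). Against NC, CCL20 was called higher under si-circ235-1 (0.85, edgeR, adjusted p = 0.0336), a call lost with total counts in place of TMM factors (0.77, 0.0589). Under si-circ235-2 it was not called against NC (-0.30, edgeR, adjusted p = 0.266).

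Many calls in the pathway and marker lists were lost when 1 library was left out, which also lowers the power of the test. A lost call need not mean a changed value. Under si-circ235-1, CSF3 stayed at 1.65 to 1.80 and CCL2 at 1.66 to 1.95, while other values named below moved more. Each of the 6 libraries was left out in turn. For the 15 calls under si-circ235-1 this could not separate the genes, since at least 1 of these fits gave no calls among all genes tested. Of 38 under si-circ235-2, 8 were kept, namely OSMR, IRAK2, NFKBIZ, STAT3, MAPK14, CNOT1, OAS3 and PPARG. Under si-circ235-2, IL32, SIGIRR, GSDMD and ISG15 came as near to 0 as -0.82, -0.74, -0.60 and -0.61 with 1 library left out, and none of them was called without NC replicate 1. Between the siRNAs 23 of 51 calls were kept, among them CCL2, CCL20, CCL28, IL1R1, IL32 and CASP4. Leaving out libraries one at a time in these lists was chosen after seeing the data.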

How the data were processed

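RNA of 6 T24 libraries, in 3 conditions with 2 libraries each, was extracted with RNAiso Plus, enriched on oligo dT beads and sequenced with no record of strand. The deposited values are raw counts per gene, made by the authors. Per the labels' processing notes the tools were FastQC, cutadapt and STAR and the build hg38, and the sources used here do not give the counting tool, its annotation or any filter. Gene identifiers were matched to GENCODE release 29 (58025 of 58288, 99.55%).

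From the counts as deposited, edgeR 4.0.16 (R 4.3.3) kept genes by filterByExpr, scaled libraries by TMM and ran the quasi-likelihood test, two-sided, over all 14415 genes tested, with Benjamini-Hochberg adjustment and a threshold of 0.05. A fit with 1 mean per condition gave 3 comparisons, and a fit with both siRNAs as 1 group gave the fourth. Standard errors were computed as the log2 fold change over the square root of F. The 95% intervals used the total degrees of freedom of the test, the residual ones plus those of edgeR's prior. CPM values used TMM-scaled library sizes, and floors and CPM cover counting error only, since reads carried no molecular identifiers. The code was tested on simulated data.

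The 10 genes and the lists around them were chosen with earlier results of these data known. All 10 were named, and in each other list up to 3 genes per comparison with the largest change among called genes with a mean of at least 1 CPM, or up to 2 with the highest mean where none was called. IL6R, LIFR and further single genes named for a count of 5 or fewer fall outside that rule and were chosen after their values were seen. The lists were other chemokines, other cytokines, receptors, interleukin 1 antagonists and processing, interleukin 1 and NF-kB signalling, NF-kB feedback, JAK-STAT3, AU-rich decay, interferon response, and leukocyte, fibroblast and endothelial, epithelial and urothelial markers.

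Alternatives were DESeq2 1.42.0, its size factors in edgeR, no filter on low counts, total counts in place of TMM factors, fits on 2 conditions only, removal of a spline trend over length and GC content, the replicate number as a block, the average of both siRNAs from the fit by condition, and each library left out in turn. Promoters came from RefSeq (GRCh38.p14) and 3' UTRs from GENCODE. The same-numbered libraries are described in the labels only as biological replicates, so no pairing was used.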

Additional observations from a re-analysis of the deposited data

Results flagged for a closer look

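The effects of the 2 siRNAs against NC differed from each other for 3 of the 7 tested genes, by the edgeR test of si-circ235-2 against si-circ235-1. CXCL1 was lower under si-circ235-2 by 0.69 on the log2 scale (difference -0.69, adjusted p = 0.0169), in 2 of 2 libraries against both libraries of si-circ235-1. CSF2 showed the largest of the 3 differences, -1.57 (edgeR, adjusted p = 0.00209), with its si-circ235-1 libraries above NC and its si-circ235-2 libraries below. LIF was higher under si-circ235-2, with a difference of 0.72 (edgeR, adjusted p = 0.0187), and its si-circ235-1 libraries lay below the other 4. Groups of 2 libraries were too small for a check of single outlying libraries.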

How the results depend on the processing

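Of the log2 fold changes of the 7 genes recomputed under all alternatives, 323 kept their direction and side of the threshold, 20 newly passed it, 17 no longer passed and 4 changed sign. Under si-circ235-1 the 7 genes gave 4 calls in place of 2 with DESeq2, with the 2 conditions fitted alone and after removal of the length and GC trend, and 0 to 2 with 1 library left out. All genes gave 847 calls, 1519 with DESeq2, 1678 with no filter on low counts, 1708 with the 2 conditions alone, 1995 after removal of the trend and 0 to 1451 with 1 library left out. Under si-circ235-2 the 7 genes gave 4 calls in place of 2 without TMM factors and after removal of the trend, and 0 to 3 with 1 library left out, where all genes gave 679 to 4197 in place of 4530. Between the siRNAs the 7 genes gave 3 calls, 4 with DESeq2 and 1 to 3 with 1 library left out, where all genes gave 2755 to 5556 in place of 5725. With both siRNAs as 1 group all genes gave 0 calls, 160 with DESeq2, 4 with no filter and 1407 as the mean of both siRNAs by condition, which gave 4 calls among the 7. The sign changes were CXCL3 under si-circ235-1 without NC replicate 2 (0.57) or si-circ235-1 replicate 2 (0.52), in a range of -0.97 to 0.57 with 1 library left out, CXCL3 for both siRNAs without NC replicate 1 (-0.087, range -0.087 to 0.95) and IL6 between the siRNAs without si-circ235-2 replicate 1 (-0.16, range -0.16 to 0.23). Apart from fewer libraries in the left-out fits, the cause was not tested. Where 1 library was left of a condition, it was assumed to vary like the others.

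With the replicate number as a block the calls among the 7 genes were 2, 2, 3 and 0 and among all genes 937, 4750, 6043 and 0 in the 4 comparisons. Deviations of same-numbered libraries correlated at -0.094 (NC and si-circ235-1), 0.15 (NC and si-circ235-2) and 0.14 (both siRNAs), so the numbers were not taken as a pairing. With 2 libraries a condition, and 44 reads of IL1A, 4 of IL1B and 0 of CXCL5 in all, depth and number of libraries limit what could be called. In the pathway and marker lists, 73 counts of calls moved by over 1.5 times and 200 did not. These checks used total counts in place of TMM factors and each library left out. The left-out fits of these lists were chosen after seeing the data, as were their DESeq2 counts, which are not among the 73 and 200.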

Other observations

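Within si-circ235-2 some listed genes stood apart between the 2 libraries, and the share of all genes that did so was not counted. Others on the lists, such as RC3H2 and DDX58, were also lower in replicate 1, so the genes named next are examples. IL6ST measured 12.2 and 95.9 CPM, LIFR 6.90 and 23.3 CPM and BIRC3, an inhibitor of cell death that NF-kB induces, 12.7 and 56.2 CPM, with replicate 1 the lower in each, while the NC libraries had 67.7 and 75.0 CPM of IL6ST and 12.5 and 13.9 CPM of LIFR. IL6 itself was higher in replicate 1 (122 against 93.9 CPM).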
